A study of Arabidopsis thaliana with 6 samples.

Results

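Major latex proteins (MLPs) are small plant proteins first described in the latex of opium poppy. They belong to the Bet v 1 family, named after a birch pollen allergen, whose fold encloses a hydrophobic cavity that can hold small lipophilic molecules. The PYR/PYL receptors of abscisic acid, the hormone of seed maturation and dormancy, share this fold. For most Arabidopsis MLPs no molecular role is settled.

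The 9 members described here are MLP28 (AT1G70830), MLP31 (AT1G70840), MLP34 (AT1G70850), AT1G70880, MLP43 (AT1G70890), AT1G14930, AT1G14940, AT1G14950 and MLP423 (AT1G24020), out of 33471 loci. They were selected on their measured normalised counts, to set members that were higher in both mutant lines, ar21 and i4g1, than in wild type (WT) beside members that were lower in both. By library, 1 of the 9 was higher, 3 were lower, 3 were mixed and 2 were listed at 0. Their values against WT are therefore given as a description, with no test. Of the 9, 7 had a value above 0 in a library and 5 reached a mean normalised count of 10, the minimum for the fit. MLP34 and AT1G70880 were listed at 0 in all 6 libraries.

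RNA came from whole developing seeds of 3 Columbia-0 lines of Arabidopsis thaliana (ar21, i4g1 and WT), 2 biological replicates each, dissected from siliques 13 days after flowering (12 to 13 days where the labels describe extraction). All lines grew under long days, and seeds of tagged flowers on primary shoots were pooled. The labels name no allele or gene for the mutant lines. From knowledge of the study, and not from the labels, both are read as mutants of eIFiso4G1 (AT5G57870), a scaffold of translation initiation. Its normalised count was 116 and 123 in ar21, 24.5 and 45.6 in i4g1, and 368 and 454 in WT.

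The libraries held 3418773 to 8435759 reads, 18S rRNA included, and in whole seeds fewer cells of a type and less RNA per cell cannot be told apart. The 18S rRNA locus took 29.96% and 19.8% of reads in ar21, 11.5% and 3.90% in i4g1, and 40.8% and 60.7% in WT. On scaling to nuclear loci without it, MLP28 was still the 1 member above WT and the same 3 members lay below. The factors of that scaling, 0.970 to 1.075, were too close to 1 to turn the direction of MLP28, AT1G14930 or AT1G14940. For these genes it is therefore no check on the difference in 18S share. Of reads outside the 18S locus, plastid loci took 0.82% and 0.53% in ar21, 0.38% and 0.12% in i4g1, and 2.33% and 3.09% in WT. Mitochondrial loci took 1.79% and 0.95% in ar21, 0.61% and 0.18% in i4g1, and 4.64% and 5.73% in WT. Each of these shares, 18S included, was higher in both WT libraries than in any mutant library. Their part in the member values was not tested. Of 6 reserve genes of the maturing embryo in the table, OLEO1, OLEO2 and CRU2 were abundant (OLEO1 at 74521 to 131118), while the storage protein genes CRA1, CRU3 and SESA1 stood at 10.4 to 47.6, 0 to 1.22 and 0 to 3.66, so a value of 0 in this table need not mean an absent transcript. Of 7 listed shoot markers 4 were tested. In limma 1 rose in ar21 (RBCS1A, lost with edgeR and without ar21 1, ar21 2 or WT 1, adjusted p up to 0.127) and 4 in i4g1 (RBCS1A, RBCS-3B, CA1 and RCA), where 8.74% and 12.5% of all loci rose. The summed level over all 7, most of it from RBCS1A, was 9932 and 9049 in ar21, 12635.5 and 13447 in i4g1, and 5084 and 5998 in WT. The 3 salicylic acid markers (PR1, PR5 and BGL2) all rose in i4g1 in limma, and they summed to 103 and 48.3 in ar21, 496 and 2003 in i4g1, and 146 and 81.2 in WT.

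All 9 members lie on the minus strand of chromosome 1, in 3 arrays of family genes. On TAIR10.1, AT1G14930 spans 5152263 to 5153104, AT1G14940 spans 5154537 to 5155564 and AT1G14950 spans 5157336 to 5158269. Together with AT1G14960, these genes fill an array of 7917 bases. MLP28 spans 26709889 to 26711587, MLP31 spans 26712982 to 26714069, MLP34 spans 26714866 to 26716901, AT1G70880 spans 26722846 to 26723978 and MLP43 spans 26725521 to 26726652. These 5 sit among 8 annotated genes, counting the pseudogene AT1G70885, within 16764 bases. MLP423 spans 8500119 to 8502065, beside AT1G24000 and AT1G24010. No member overlaps another annotated gene on either strand.

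**Figure D1:**
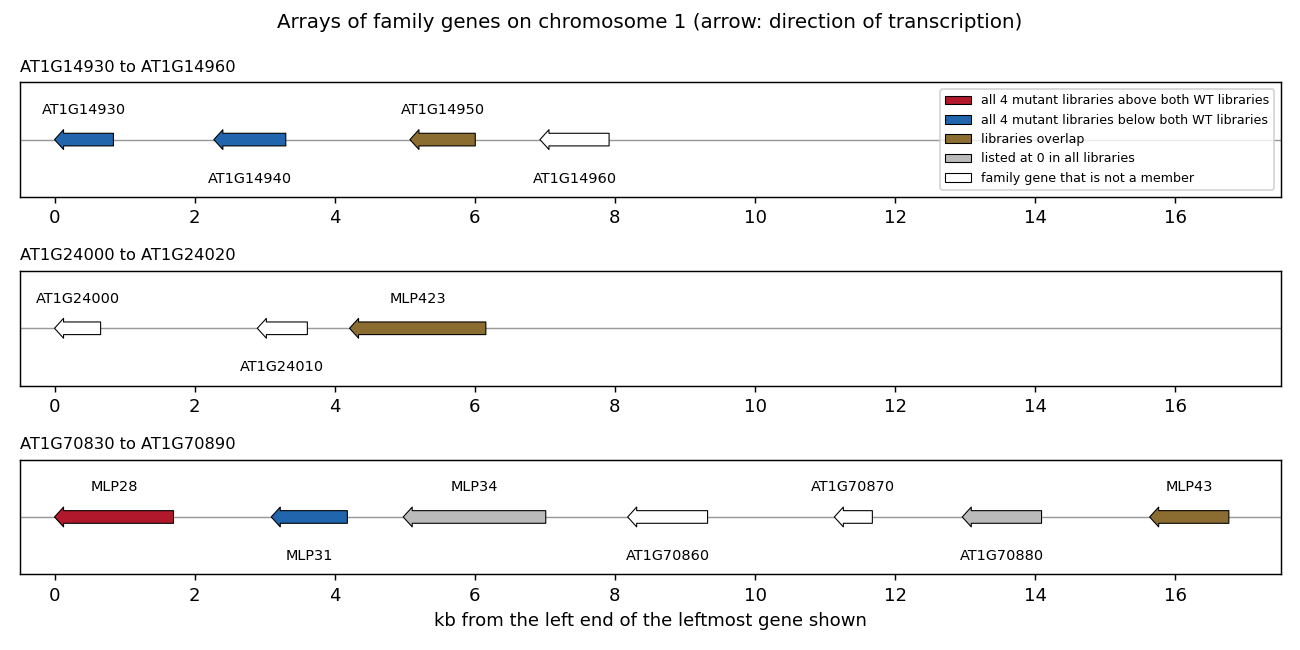
Family genes of the 3 arrays on chromosome 1, drawn to scale in kb from the left end of each array, with arrows in the direction of transcription and without the pseudogene AT1G70885. Colours give the direction of each member by library: MLP28 alone lies above WT, its neighbour MLP31 and the neighbours AT1G14930 and AT1G14940 lie below, and the libraries of AT1G14950, MLP43 and MLP423 overlap.

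The coding sequences show which members are close copies. They are credited to RefSeq on TAIR10.1 and read 5′ to 3′ on the gene's strand. The first 60 coding bases of the AT1G149 array follow, with capitals at bases that differ from AT1G14940. AT1G14930 differs there at 7 bases and AT1G14950 at 15.
AT1G14940, chr1:5155453-5155512: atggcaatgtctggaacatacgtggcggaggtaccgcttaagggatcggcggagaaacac
AT1G14930, chr1:5152976-5153035: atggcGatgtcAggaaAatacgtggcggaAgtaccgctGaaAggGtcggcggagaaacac
AT1G14950, chr1:5158085-5158144: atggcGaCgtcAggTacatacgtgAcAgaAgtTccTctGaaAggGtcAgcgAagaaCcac

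For MLP28 and MLP31, neighbours on opposite sides of WT, the first gap-free stretch of 60 aligned coding bases is shown, with capitals at the 14 bases of MLP31 that differ from MLP28.
MLP28, chr1:26711293-26711352: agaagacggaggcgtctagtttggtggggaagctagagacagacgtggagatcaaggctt
MLP31, chr1:26713918-26713977: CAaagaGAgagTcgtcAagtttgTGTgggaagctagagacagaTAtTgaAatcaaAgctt

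Over whole coding sequences, identity over aligned bases was higher between members of the same array than between members of different arrays. It was 87.2% between AT1G14930 and AT1G14940, 82.9% between AT1G14930 and AT1G14950, and 78.6% between AT1G14940 and AT1G14950. MLP28 shared 89.8% with MLP34, 85.1% with MLP43, 80.1% with MLP31 and 75.8% with AT1G70880. Between the AT1G149 and AT1G708 arrays it was 58.7% to 65.3%, and MLP423 shared 57.1% to 62.3% with the other members. MLP28 has a coding sequence of 1008 bases, about the length of a pair of Bet v 1 units, and its first part is 90.5% identical to its second. The other coding sequences run to 951 bases in MLP34 and 468 to 516 bases elsewhere.

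**Figure D2:**
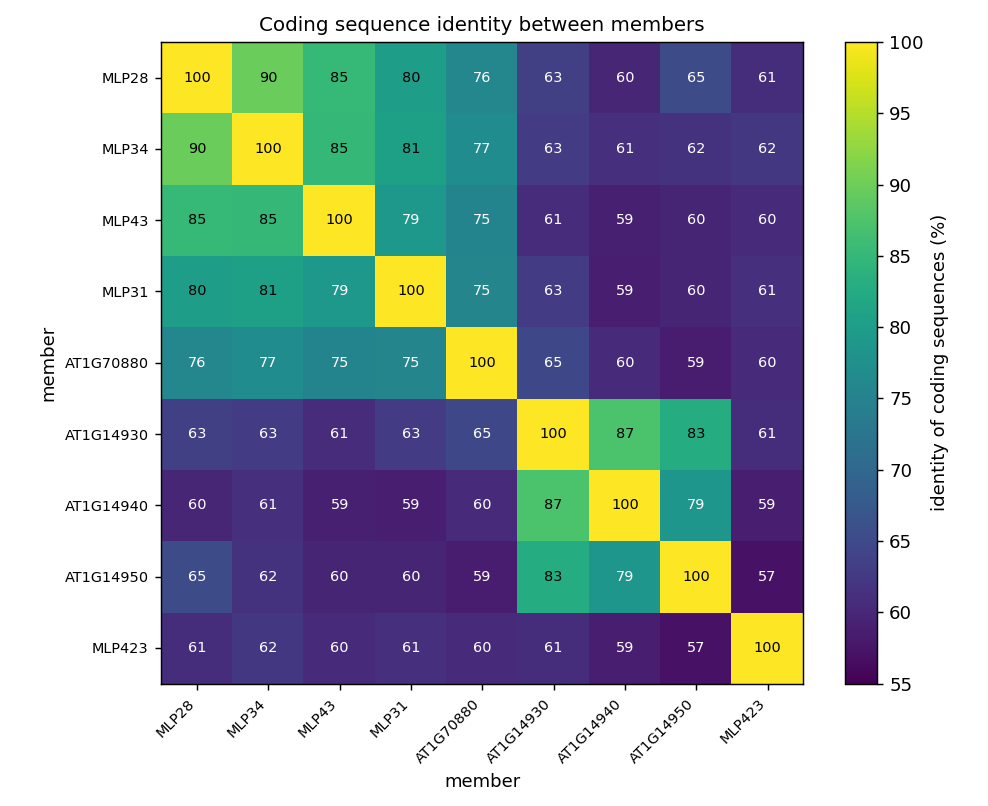
Identity of coding sequences between each pair of members, in percent, from global alignment of the longest annotated coding sequence. Identity is highest within an array, as between MLP28 and MLP34 (89.8%) or AT1G14930 and AT1G14940 (87.2%), and MLP423 stands apart.

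Close copies can share reads, so all stretches of 50 transcript bases were compared with the whole genome and with the other members' transcripts. Only a small part recurred elsewhere without mismatch: 2.01% in MLP28, 2.397% in MLP34, 0.751% in AT1G70880, 0.435% in AT1G14930 and 0.397% in AT1G14940. No such stretch recurred for MLP31, MLP43, AT1G14950 or MLP423 (0 of 710, 982, 796 and 1204). Read length and the treatment of reads with several matches are not given in the sources used here, so an exchange of reads between copies cannot be measured. The values of 0 in MLP34 and AT1G70880 may reflect how reads were assigned to loci, which was not tested.

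Of the 5 members in the fit, 1 had all 4 mutant libraries above both WT libraries and 3 had them below, against 22.7% and 21.3% of all tested loci. Those directions are what the members were chosen for, and nothing is read from the counts. AT1G14950 was mixed. The nearest case inside this sorting was MLP31, with 56.4 in its highest mutant library against 64.4 in its lower WT library. The nearest outside was AT1G14950, with 3 of its 4 mutant libraries, at 8020.3 to 9165, below the lower WT library at 10582, and i4g1 1 at 12295.

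MLP28 was the member that stood higher in both mutants. Its normalised count was 1185 and 1121 in ar21, 520.0 and 779 in i4g1, and 71.9 and 179 in WT. Each mutant library lay above both WT libraries, and both ar21 libraries above both i4g1 libraries. Means were 1153 ± 45.2 in ar21, 649.7 ± 183 in i4g1 and 126 ± 75.9 in WT (SD, n = 2 each). The log2 fold change on the log2(normalised count + 1) scale was 3.33 ± 0.31 in ar21 and 2.48 ± 0.31 in i4g1 (SE from limma). Its WT values rest on 59 and 64 reads, and the ar21 value was 2.68 without WT 1 and 3.98 without WT 2; in i4g1 these were 1.82 and 3.13. Some markers of the seed coat and endosperm also rose in both mutants, where 8.74% of all loci rose in ar21 and 12.5% in i4g1. The part of these markers in the MLP28 values was not tested. Of 6 tested seed coat markers 2 rose in each line in limma. MUM2 rose by 2.70 in ar21 (limma adjusted p = 0.000152) and 2.32 in i4g1 (0.000273). ARA12 rose by 0.87 (0.00183) and 0.79 (0.00198). The other 4 did not pass, at -0.10 to 0.38 in ar21 and -0.33 to 0.05 in i4g1. Of 4 endosperm markers MYB118 alone rose, by 0.80 in ar21 (limma adjusted p = 0.00978) and 0.71 in i4g1 (0.0127), calls lost without either ar21 library in ar21 and without i4g1 1 or WT 1 in i4g1 (up to 0.0947). The 8 listed seed coat markers summed to 11168 and 10530.3 in ar21, 10357 and 9521 in i4g1, and 8138 and 8054 in WT, and the 4 endosperm markers to 92402 to 119036 over all libraries.

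AT1G14930 and AT1G14940, annotated as members of the polyketide cyclase and lipid transport superfamily, were both lower in the mutants. AT1G14930 had 129 and 88.6 in ar21, 54.2 and 40.8 in i4g1, and 639 and 501 in WT. AT1G14940 had 177 and 102 in ar21, 134 and 101 in i4g1, and 937 and 770.1 in WT. In both genes the mutant and WT libraries were far apart, and in AT1G14930 both i4g1 libraries also lay below both ar21 libraries. The log2 fold change of AT1G14930 was -2.40 ± 0.21 in ar21 and -3.56 ± 0.21 in i4g1. For AT1G14940 it was -2.65 ± 0.23 in ar21 and -2.86 ± 0.23 in i4g1.

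AT1G14950, the third gene of that array, was the most abundant member and showed no such drop. It had 8789 and 8020.3 in ar21, 12295 and 9165 in i4g1, and 11617 and 10582 in WT. Both ar21 libraries lay below both WT libraries, and the i4g1 libraries lay on either side of them. The log2 fold change was -0.40 ± 0.19 in ar21 and -0.06 ± 0.19 in i4g1.

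MLP31, next to MLP28, had 55.3 and 56.4 in ar21, 28.8 and 35.1 in i4g1, and 64.6 and 64.4 in WT. The ar21 libraries lay just below WT and the i4g1 libraries well below both other lines. The log2 fold change was -0.21 ± 0.22 in ar21, no larger than its standard error, and -0.996 ± 0.22 in i4g1. The values rest on 23 to 81 reads a library.

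**Figure D3:**
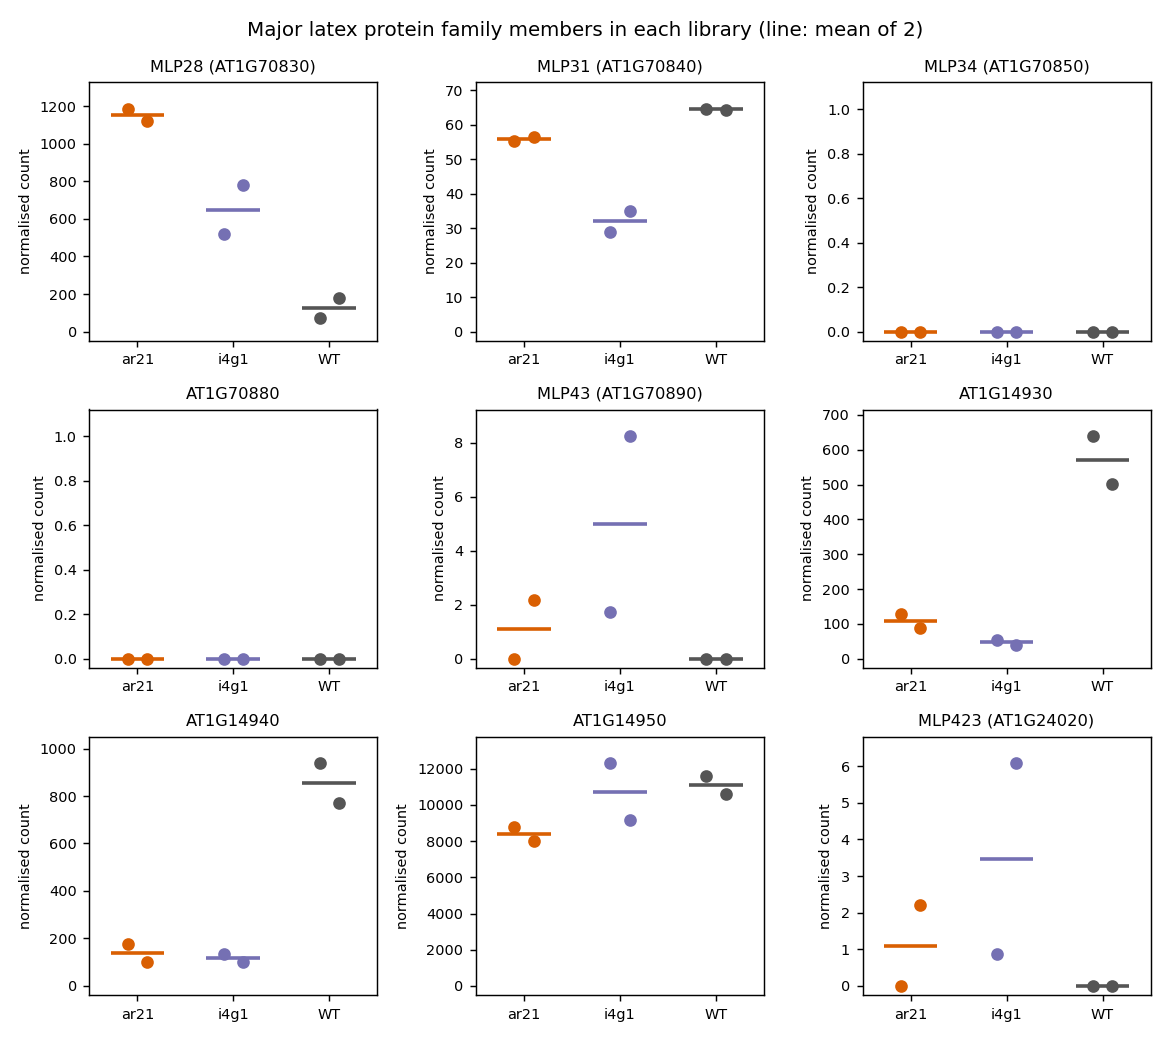
Normalised counts of the 9 members in each of the 6 libraries (points) with the mean of 2 libraries (lines), for ar21, i4g1 and WT. MLP28 stands at 520.0 to 1185 in the mutants against 71.9 and 179 in WT, AT1G14930 and AT1G14940 at 40.8 to 177 in the mutants against 501 to 937 in WT, and AT1G14950 overlaps between i4g1 and WT.

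**Figure D4:**
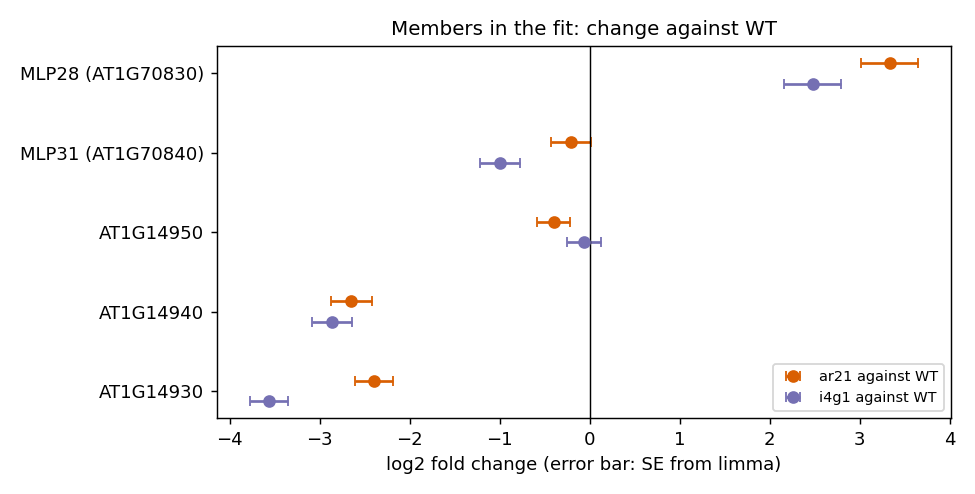
Log2 fold change of the 5 members in the fit, for ar21 and i4g1 against WT, with the standard error from limma as bars. MLP28 lies right of 0 in both lines, AT1G14940 and AT1G14930 lie between -2.40 and -3.56, and AT1G14950 lies near 0 in i4g1.

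MLP43, which has been linked to abscisic acid responses, and MLP423 were at the limit of detection. MLP43 had 0 and 2.20 in ar21, 1.75 and 8.24 in i4g1, and 0 and 0 in WT, from at most 19 reads. MLP423 had 0 and 2.20 in ar21, 0.874 and 6.07 in i4g1, and 0 and 0 in WT, from at most 14 reads. For both genes i4g1 2 was the highest library. A count of 0 in WT allows a normalised count of up to 3.66 in WT 1 and 8.40 in WT 2, taking 3 reads as the limit. The value of i4g1 2 lay above the limit of WT 1 and below that of WT 2 in both genes, and the other 3 mutant libraries lay below both limits. The summed shoot markers and each of the 3 salicylic acid markers were also highest in i4g1 2, as was CA1, a carbonic anhydrase of leaves, at 415 against 16.8 to 115 in the other 5 libraries; their part in these values was not tested.

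Ratios within a library do not depend on the scaling between libraries, but those given here are not corrected for transcript length. The ratio of MLP28 to AT1G14940 was 6.70 and 10.9 in ar21, 3.89 and 7.74 in i4g1, and 0.0767 and 0.233 in WT. Thus MLP28 exceeded AT1G14940 in every mutant library and stood below it in both WT libraries. As the members were chosen on their values against WT, shifts of these ratios between mutants and WT follow from that choice. They are a description and no separate result. AT1G14950 exceeded AT1G14940 by 49.7 and 78.3 times in ar21, 91.9 and 91.0 times in i4g1, and 12.4 and 13.7 times in WT. The ratio of MLP28 to MLP31 was 21.4 and 19.9 in ar21, 18.03 and 22.2 in i4g1, and 1.11 and 2.78 in WT. Per kilobase of transcript, MLP28 stood at 54.0 in WT 1 and 135 in WT 2, and MLP31 at 85.1 and 84.9.

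The balance of AT1G14940 and AT1G14930 is given as a description, with no test. Both genes were chosen on their values against WT. AT1G14940 took 57.9% (95% interval 52.1 to 63.5) and 53.6% (47.4 to 59.8) of their joint reads in ar21. In i4g1 it took 71.2% (64.6 to 77.1) and 71.2% (65.9 to 76.0). In WT it took 59.5% (56.7 to 62.2) and 60.6% (55.9 to 65.1). The intervals are exact (Clopper-Pearson) and cover counting error only. They leave out the spread between libraries of a line, so no difference between lines is read from them. Both i4g1 shares lay above all 4 others, and the interval of i4g1 1 overlapped that of WT 2 by less than a point.

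**Figure D5:**
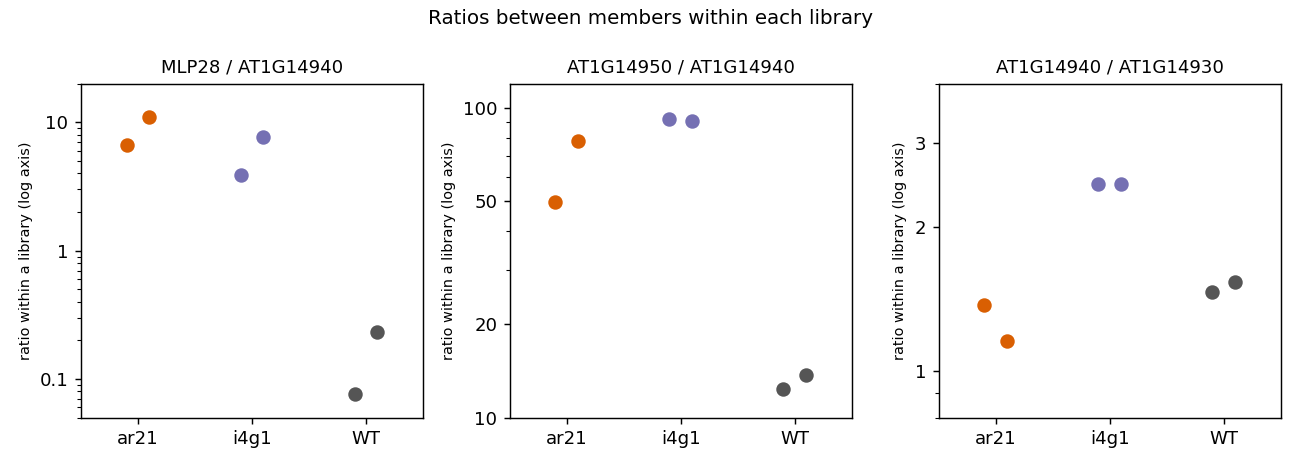
Ratios between members within each library, on log axes, for ar21, i4g1 and WT (points are libraries). The members were chosen on their values against WT, so the ratios are a description. MLP28 over AT1G14940 is 3.89 to 10.9 in the mutants against 0.0767 and 0.233 in WT, AT1G14950 over AT1G14940 is 49.7 to 91.9 against 12.4 and 13.7, and AT1G14940 over AT1G14930 is highest in i4g1 at 2.47.

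Levels were compared between members as normalised counts per kilobase of transcript. In ar21 the order was AT1G14950 (9946 ± 643), MLP28 (866 ± 34.0), AT1G14940 (184 ± 69.5), AT1G14930 (147 ± 38.3) and MLP31 (73.5 ± 1.03). In i4g1 it was AT1G14950 (12698 ± 2619), MLP28 (488 ± 138), AT1G14940 (155 ± 30.9), AT1G14930 (64.3 ± 12.8) and MLP31 (42.2 ± 5.88). In WT it was AT1G14950 (13135.5 ± 866), AT1G14940 (1128 ± 156), AT1G14930 (771 ± 132), MLP28 (94.3 ± 57.0) and MLP31 (85.0 ± 0.186; SD, n = 2 each). By these means MLP28 was the second of the 5 in both mutants and the fourth in WT. Members were chosen on their values against WT, so this shift in order is a description. In ar21 the SDs of AT1G14940 and AT1G14930 overlapped, but AT1G14940 was the higher in ar21 1 (234 against 174) and in ar21 2 (135 against 120). In WT the SDs of MLP28 and MLP31 overlapped, and MLP28 was lower in WT 1 (54.0 against 85.1) and higher in WT 2 (135 against 84.9).

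AT1G14950 carried 85.0% and 85.4% of the summed member signal in ar21, 94.3% and 90.4% in i4g1, and 87.2% and 87.5% in WT. MLP28 carried 11.5% and 11.9% in ar21, 3.99% and 7.69% in i4g1, and 0.540% and 1.48% in WT. AT1G14930 and AT1G14940 together carried 2.96% and 2.03% in ar21, 1.44% and 1.40% in i4g1, and 11.8% and 10.5% in WT. The sum itself was 10334 and 9393 in ar21, 13034 and 10135 in i4g1, and 13329.5 and 12097 in WT. Shares and sum are not corrected for transcript length.

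The comparison of ar21 with i4g1 was not part of the rule that chose the members, so it was tested. The same mutant libraries entered that choice, which was made with earlier results known, so the test is not wholly apart from it. The comparison asks whether the mutant lines differ from each other. In limma, with p-values adjusted over all 15589 loci tested, 1 of the 5 members passed and was higher in ar21, against 0.282% of all loci passing in either direction and 0.115% passing as higher. For AT1G14930 the log2 difference, ar21 minus i4g1, was 1.17 ± 0.21 (SE, limma adjusted p = 0.0426), with both ar21 libraries above both i4g1 libraries. The call was lost without ar21 1, ar21 2, i4g1 2 or WT 1 (limma adjusted p of 0.0534 to 0.583), with no filter on low values (0.156), and under edgeR, which gave 0.93 (edgeR adjusted p = 0.262).

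The other 4 members did not pass between the mutants. The log2 difference of MLP28 was 0.85 (95% interval 0.17 to 1.54, limma adjusted p = 0.425) and that of MLP31 was 0.79 (0.31 to 1.27, limma adjusted p = 0.226). In both genes each ar21 library lay above each i4g1 library, as it did in 21.5% of all tested loci. For AT1G14940 the log2 difference was 0.21 (-0.28 to 0.70, limma adjusted p = 0.859), and for AT1G14950 it was -0.34 (-0.74 to 0.07, limma adjusted p = 0.658). AT1G14950 had both ar21 libraries below both i4g1 libraries, as had 20.8% of all tested loci. The intervals are not adjusted for the number of loci.

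The promoters of the AT1G149 array show what the pair of lower genes shares upstream. The 250 bases before each annotated gene start are given 5′ to 3′ on the gene's strand. Capitals in AT1G14930 and AT1G14940 mark runs of at least 10 bases that these promoters share, and in AT1G14950 a run shared with AT1G14940.
AT1G14930, chr1:5153105-5153354: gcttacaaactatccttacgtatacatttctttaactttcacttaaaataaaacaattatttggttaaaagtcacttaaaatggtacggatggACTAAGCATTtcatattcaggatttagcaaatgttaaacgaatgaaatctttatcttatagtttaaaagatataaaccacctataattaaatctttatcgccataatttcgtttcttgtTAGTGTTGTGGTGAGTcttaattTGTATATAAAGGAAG
AT1G14940, chr1:5155565-5155814: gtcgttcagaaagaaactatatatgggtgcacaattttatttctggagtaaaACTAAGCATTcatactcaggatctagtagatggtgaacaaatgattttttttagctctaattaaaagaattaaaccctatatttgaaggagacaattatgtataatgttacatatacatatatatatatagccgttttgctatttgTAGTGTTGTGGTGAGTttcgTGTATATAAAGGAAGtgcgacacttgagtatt
AT1G14950, chr1:5158270-5158519: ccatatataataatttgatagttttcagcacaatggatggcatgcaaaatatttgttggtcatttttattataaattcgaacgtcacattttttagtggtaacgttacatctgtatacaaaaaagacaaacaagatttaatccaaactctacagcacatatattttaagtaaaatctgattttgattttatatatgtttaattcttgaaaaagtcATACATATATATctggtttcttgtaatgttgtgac

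Shared runs cover 41 bases in AT1G14930 and 41 in AT1G14940. The longest, TAGTGTTGTGGTGAGT, has 16 bases and starts 38 bases before AT1G14930 and 52 before AT1G14940. Among 27443 promoters of protein-coding genes it occurs, on either strand, in these 2 alone. AT1G14950 shares a run of 12 bases with AT1G14940, ATACATATATAT, which 81 promoters hold, and at most 9 bases with AT1G14930. These matches are descriptions of sequence, and the pair also has the closest coding sequences of its array.

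MLP28 and MLP31 have no such resemblance upstream, with a longest shared run of 10 bases, which 38 promoters hold. The MLP28 promoter is shown with the core of the abscisic acid response element, ACGTG, in capitals.
MLP28, chr1:26711588-26711837: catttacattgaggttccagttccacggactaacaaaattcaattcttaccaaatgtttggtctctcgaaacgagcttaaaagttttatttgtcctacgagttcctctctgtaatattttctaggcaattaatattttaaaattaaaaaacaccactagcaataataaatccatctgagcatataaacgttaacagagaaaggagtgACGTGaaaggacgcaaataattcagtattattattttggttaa

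Short motifs were searched on both strands in the 9 promoters of 250 bases. ACGTG was found in MLP28 alone of the members, 43 bases before its gene start, against 22.9% of all promoters. The RY core CATGCA, a seed maturation element, was found in AT1G14950 alone (8.43% of all promoters). TATCCA was found in MLP31 and AT1G70880 (13.6%), the W-box core TTGAC in the same 2 members (44.9%), TGGGCC in MLP423 (13.7%), and the drought response core CCGAC in 0 of 9 (12.0%). A match is a string of letters and says nothing of binding.

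Genes beside the arrays were read for whether the differences extended past the family. GAI (AT1G14920), a repressor of gibberellin responses 847 bases from AT1G14930, had 112 and 95.9 in ar21, 138 and 105 in i4g1, and 92.6 and 101 in WT. Its log2 fold change was 0.10 ± 0.18 in ar21 (limma adjusted p = 0.769) and 0.31 ± 0.18 in i4g1 (limma adjusted p = 0.246). AT1G14970, on the far side of AT1G14960, had -0.35 ± 0.29 in ar21 (limma adjusted p = 0.449) and -0.63 ± 0.29 in i4g1 (limma adjusted p = 0.137), and it passed in i4g1 without i4g1 2 (limma adjusted p = 0.0341). AT1G70820 and CLE17, beside the MLP28 array, were below the minimum of the fit, at 0.732 to 12.1 and 1.22 to 11.2.

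Of 19 other genes of the family, 7 were listed at 0 in all libraries and 5 were tested. In ar21 against WT 1 rose, 1 fell and 3 did not pass, with 8.74% and 6.04% of all loci rising and falling. In i4g1 against WT 2 rose, 0 fell and 3 did not pass, with 12.5% and 9.84% of all loci, or 22.4% in either direction (14.8% in ar21). The genes that rose, AT4G23670 and AT1G23130, reached the minimum mean of the fit only through mutant libraries. Nothing is therefore read from the counts of rises. Without adjustment 1 gene in i4g1 had a limma p under 0.05 for a fall, and edgeR called 1. The median log2 fold change of the 5 was 0.20 in ar21 and -0.38 in i4g1, against 0.01 over all loci in both.

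AT4G23670 passed in both mutants, with 19.1 and 10.98 in ar21, 10.5 and 23.0 in i4g1, and 3.66 and 2.80 in WT, from 3 reads and 1 read. It reached the minimum mean of 10 only through the mutant libraries, where it was high. Its log2 fold change was 1.88 ± 0.54 in ar21 (limma adjusted p = 0.0370) and 1.98 ± 0.54 in i4g1 (limma adjusted p = 0.0221). The calls were lost, in ar21 also with no filter on low values (0.0701), without WT 2 in both lines, without either ar21 library in ar21 and without i4g1 2 in i4g1 (limma adjusted p up to 0.331), and in ar21 with edgeR (edgeR adjusted p = 0.299).

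MLP328 (AT2G01520) was lower in both, with 9.04 and 9.52 in ar21, 21.0 and 7.38 in i4g1, and 43.9 and 28.0 in WT. It fell in ar21 (log2 fold change -1.81 ± 0.47, limma adjusted p = 0.0245), a call lost without WT 1 or either ar21 library (limma adjusted p up to 0.152), with no filter on low values (0.0629) and with edgeR (edgeR adjusted p = 0.102). In i4g1 it did not pass, just above the threshold (log2 fold change -1.41, limma adjusted p = 0.0512). The difference of MLP328 between the mutants did not pass either (-0.40, limma adjusted p = 0.884). With a pseudocount of 5, on scaling to nuclear loci or with the replicate number as a block, limma called 1 of the 5 tested genes lower in i4g1. It called 0 with a pseudocount of 0.5 or with trimmed mean of M values scaling.

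AT1G23130 passed in i4g1, with 3.01 and 5.12 in ar21, 14.9 and 36.4 in i4g1, and 2.44 and 0 in WT, from 2 reads and 0. It reached the minimum mean only through i4g1, and its log2 fold change there depends on the pseudocount, at 4.30 with 0.5 and 2.23 with 5. Its log2 fold change in i4g1 was 3.72 ± 0.78 (limma adjusted p = 0.00573), and the call was lost without i4g1 2 (3.10, limma adjusted p = 0.0876). In ar21 it was 1.42 (limma adjusted p = 0.253), and the difference between the mutants did not pass (-2.30, limma adjusted p = 0.382). As with MLP43 and MLP423, i4g1 2, where the summed shoot and salicylic acid markers were highest, was its highest library, and their part in it was not tested. Between ar21 and i4g1, 0 of the 5 passed in limma, with 1 higher and 1 lower at an unadjusted p under 0.05, and edgeR called 0.

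The abscisic acid receptors that share the fold were measured more often, with 9 of 14 tested and 2 listed at 0. In ar21 2 rose and 7 did not pass, and in i4g1 3 rose, 1 fell and 5 did not pass, against 8.74% rising and 6.04% falling in ar21 and 12.5% and 9.84% in i4g1 over all loci. Falls in ar21 numbered 0 in limma, 0 also without adjustment, and edgeR called 0 in either direction there. With no filter on low values limma called 1 of 12 receptors higher and 1 lower in each line. The median log2 fold change of the 9 was 0.34 in ar21 and 0.40 in i4g1, against 0.01 over all loci in both.

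PYR1 (AT4G17870) had 160 and 164 in ar21, 188 and 145 in i4g1, and 111 and 75.6 in WT. Its log2 fold change was 0.81 ± 0.20 in ar21 (limma adjusted p = 0.0171) and 0.84 ± 0.20 in i4g1 (limma adjusted p = 0.0100), and both calls were lost without WT 2 (up to 0.0890), in ar21 without either ar21 library (up to 0.122) and in i4g1 without i4g1 1 (0.0943); edgeR did not call it in ar21 (edgeR adjusted p = 0.108). PYL7 (AT4G01026) rose by 0.88 in ar21 (limma adjusted p = 0.0411) and 0.85 in i4g1 (limma adjusted p = 0.0357). RCAR3 (AT5G53160) rose by 0.88 in i4g1 (limma adjusted p = 0.0258) and PYL2 (AT2G26040) fell to 9.61 and 9.11 in i4g1, against 34.1 and 16.8 in WT (log2 fold change -1.27, limma adjusted p = 0.0448). These calls were lost without some libraries: both PYL7 calls without WT 2, in ar21 also without either ar21 library and in i4g1 without i4g1 2 or either ar21 library; RCAR3 without WT 2 or either i4g1 library; PYL2 without WT 1 or any mutant library. Both PYL7 calls were also lost on scaling to the nuclear loci (limma adjusted p up to 0.0705) and, as with RCAR3, with edgeR (up to 0.175). With no filter on low values the calls of PYL7, RCAR3 and PYL2 were lost as well (limma adjusted p of 0.0550 to 0.0890). Between the mutants, 0 of 9 receptors passed in limma, with 1 at an unadjusted p under 0.05, and edgeR called 0.

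The loci whose profile over the 6 libraries lay nearest to those of the outermost members were found by Euclidean distance between centred log2 values. The search picks loci with the pattern of the member, so a shared order of lines is no separate result. Nearest to MLP28 were GH9B15 (AT4G23560, distance 0.45), an endoglucanase-type glycosyl hydrolase, the peroxidase gene AT5G15180 (0.746), the seed coat mucilage gene MUM2 (AT5G63800, 0.786) and GILT (AT4G12960, 0.787). GH9B15 had 91.4 and 83.4 in ar21, 48.1 and 59.4 in i4g1, and 6.09 and 11.2 in WT, the same order of lines as MLP28. Nearest to AT1G14930 were AT4G16680 (0.511), AT2G12490 (0.673), annotated as a transposable element gene, AT2G07786 (0.788) and the GAST1-like gene GASA2 (AT4G09610, 0.799). AT4G16680 had 85.4 and 57.1 in ar21, 29.7 and 19.1 in i4g1, and 299 and 241 in WT, again lowest in i4g1.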

How the data were processed

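Tools named by the authors, per the submitters' processing notes, are DESeq2 1.12.4, HTSeq 0.6.0, STAR 2.4.0j and StringTie 1.0.3, and the build is TAIR10; neither roles nor parameters are given there. Deposited by the authors is a signal, the reads of a locus scaled by a size factor of its library. Every value was a whole multiple of a step of its library (100% within 0.001), and reads are values divided by that step. In ar21 1 the step is near 1, at 1.00476. The 34001 rows were summed by locus to 33471, of which 10157 were 0 in all libraries. No library pair was identical, and the mean chi-square per locus between replicates was 3.81, 9.46 and 5.48 in ar21, i4g1 and WT.

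For the tests, limma 3.58.1 (R 4.3.3) was run on the log2 of normalised count plus 1, over all 6 libraries, with a mean per line, an intensity trend, a mean of at least 10 and Benjamini-Hochberg adjustment over all loci at 0.05, two-sided. The fit was tested on simulated data. The alternative edgeR 4.0.16 used 5 libraries, without ar21 1. There ar21 rests on 1 library, so an ar21 call lost with edgeR is no check apart from leaving out ar21 1. Nothing in the labels ties replicates to separate plants, so p-values measure the spread between these samples.

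The members and lists were chosen with earlier results of these data known. Named were all members, list genes that passed in a comparison, the 4 loci nearest to the outermost members, and the genes beside the arrays, added by position later. Sequences and gene models are RefSeq's TAIR10.1, aligned with Biopython 1.88. Of the members, 9 matched it; protein sequences were not used here.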

Additional observations from a re-analysis of the deposited data

Results flagged for a closer look

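The mutant lines differed from each other, by the limma test of ar21 against i4g1, in 1 member and in 4 marker genes. The log2 difference was 1.17 for AT1G14930 (limma adjusted p = 0.0426), higher in 2 of 2 ar21 libraries than in either i4g1 library. It was -4.35 for PR1 (AT2G14610, limma adjusted p = 0.00691), -3.89 for PR5 (AT1G75040, limma adjusted p = 0.0167), -3.38 for CA1 (AT3G01500, limma adjusted p = 0.0109) and -1.96 for RBCS-3B (AT5G38410, limma adjusted p = 0.0167), each lower in 2 of 2 ar21 libraries. Normalised counts of PR1 were 38.2 and 22.0 in ar21 and 308 and 1218 in i4g1. All 5 calls were lost without ar21 2, with edgeR on 5 libraries and with no filter on low values. The calls of AT1G14930, PR5, CA1 and RBCS-3B were also lost without ar21 1 or i4g1 2 (limma adjusted p of 0.0658 to 0.583).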

How the results depend on the processing

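The directions against WT are what the members were chosen for, so their stability is a description. The member that stood above WT numbered 1 in all of the alternatives run for it. The members below WT numbered 3 to 4 when 1 library was left out, with AT1G14950 joining without i4g1 1, and 3 under the other filters and scalings. Calls over all loci depended more on the libraries. In ar21 against WT limma called 2304 loci, 522 to 2374 without 1 library (fewest without ar21 1) and 685 with edgeR on 5 libraries. In i4g1 against WT it called 3485, and 2044 to 3185 without 1 library (fewest without i4g1 1). In ar21 against i4g1 it called 44, 2 (without ar21 1) to 158 (without i4g1 1) without 1 library, 2 with edgeR and 2 with no filter on low values; the cause was not tested. Scaling to nuclear loci without AT3G41768 gave 1429 of 3279 calls higher in i4g1 against WT, where the authors' scaling gave 1951 of 3485, and 20 of 36 against 18 of 44 in ar21 against i4g1. With the replicate number as a block the counts were 2457, 3672 and 82 for these comparisons, and AT1G14930 had limma adjusted p = 0.00719 between the mutants. Same-numbered libraries share only a number, with correlations of their deviations of 0.124 (ar21 and i4g1), -0.0797 (ar21 and WT) and -0.0282 (i4g1 and WT). In the tally that follows, list genes were included only for comparisons they passed in limma with all libraries. They could therefore lose a call but not gain one, and the tally does not measure how often list genes gained calls. Of the values of single genes, 75 lost a call, 1 gained a call, 1 moved beyond the replicate spread and 619 did none of these, although 2 of them changed sign near 0 (AT1G14950 in i4g1 against WT, 0.15 without i4g1 2 and 0.0045 without WT 1). A further 4, called nowhere, turned direction: AT1G14940 in ar21 against i4g1, at -0.17 with edgeR and -0.18 (without ar21 1) to 0.60 (without ar21 2), and GAI in ar21 against WT, at -0.0075 with edgeR and -0.011 (without ar21 1) to 0.20 (without ar21 2). Depth limits MLP43 and MLP423, with at most 19 and 14 reads.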
